A study of Mus musculus with 6 samples.

Results

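The 41 genes described here encode the contractile apparatus of smooth muscle and the regulators that act on it: actins, myosin chains, tropomyosins, calponins, the crosslinkers and LIM proteins of dense bodies, serum response factor (SRF) with its cofactors, and the kinases and phosphatase subunits that set myosin phosphorylation. They were chosen by name and role, with earlier results of these data known. Of the 41, 40 were listed in at least 1 of the 6 libraries, out of 17909 gene identifiers in all, and Myocd was listed in none. RNA was sequenced from hepatic stellate cells of mice, which store retinoid and wrap the liver sinusoid, on day 1 of primary culture. The cells were freed by collagenase and pronase perfusion, banded on a Nycodenz gradient, depleted of macrophages with Cd11b microbeads, left for 4 h to attach in DMEM with 10% serum and kept for 14 h more. Both groups came from male C57BL/6 mice of 24 weeks. HAS2_Tg mice (replicates 4, 5 and 6) carried human HAS2, a hyaluronan synthase, under the promoter of alpha smooth muscle actin (ASMA-HAS2 Tg), the product of Acta2, itself one of the genes examined. Has2_KO mice (replicates 7, 8 and 9) lacked Has2 in stellate cells, where Lrat-Cre removed the floxed gene. The comparison has no wild-type arm here, so a higher level in HAS2_Tg and a lower level in Has2_KO cannot be told apart. Below, rose and fell mean only higher and lower in HAS2_Tg than in Has2_KO. The labels do not say whether each library came from 1 mouse or from pooled mice, so p-values measure the spread between these libraries.

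Smooth muscle and activated stellate cells generate tension when myosin II filaments pull on actin filaments. Calcium and calmodulin activate myosin light chain kinase, which phosphorylates the regulatory light chain, and myosin phosphatase reverses this unless the phosphatase inhibitor CPI-17 (Ppp1r14a) holds it back. The transcription of many of these genes is controlled by SRF, which binds the CArG box, a CC, a run of A or T bases and a GG. Its cofactors are myocardin, found in heart and smooth muscle, and the myocardin-related factors MRTF-A and MRTF-B, which enter the nucleus when free actin monomer is used up. Induction of Acta2 is the usual mark of a stellate cell turning into a myofibroblast in injured liver and on culture plastic.

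The libraries held 11961726 to 12423220 expected counts. Counts of Has2, which the deletion targets, were 847, 889 and 835 in HAS2_Tg and 1 in each Has2_KO library. Whether reads of the human HAS2 transgene add to this mouse count in HAS2_Tg was not tested. All 15 stellate cell markers on a fixed list were detected in both groups, with summed levels of 11306 to 12135 CPM (counts scaled to library depth with TMM) in HAS2_Tg and 7608 to 7991 CPM in Has2_KO. Of these 15, 12 were called higher in HAS2_Tg and 0 lower, with a median log2 fold change (HAS2_Tg minus Has2_KO) of 0.76. Markers of other liver cells also differed. Kupffer cell and macrophage markers summed to 14.9 to 17.5 CPM in HAS2_Tg and 709 to 766 CPM in Has2_KO, all 19 tested of 20 being lower in HAS2_Tg, and Clec4f and Timd4 were at 0 in every HAS2_Tg library. Sinusoidal endothelial markers summed to 26.0 to 29.8 and to 1189 to 1292 CPM, with all 20 lower in HAS2_Tg and Emcn and Gpihbp1 at 0 there. Hepatocyte markers summed to 25.8 to 27.1 and to 62.5 to 79.9 CPM (9 of 10 tested lower, median log2 fold change -3.11). Most of the HAS2_Tg sum was Trf, at 22.1 ± 0.77 against 25.6 ± 2.63 CPM (SD, n = 3) and not called, while Alb was 0.88 ± 0.31 against 23.4 ± 4.44 CPM. Cholangiocyte markers summed to 3.58 to 4.31 and to 28.7 to 33.5 CPM (4 of 4 lower) and mesothelial markers to 4.04 to 8.11 and to 23.4 to 24.7 CPM (2 of 2 lower). Neutrophil markers summed to 30.1 to 35.0 and to 37.3 to 40.2 CPM (2 of 3 lower), mostly from Cxcr2, at 31.4 ± 2.29 against 30.8 ± 2.06 CPM and not called. Portal fibroblast markers summed to 109 to 145 and to 98.7 to 101 CPM (2 higher and 4 lower of 7 tested). None of these lists of other cells holds a contractile or SRF gene of the 41, and their part in the differences below was not tested. In bulk RNA, fewer cells of a type and less RNA per cell cannot be told apart. The HAS2_Tg libraries differed from one another by transcript length. The median log2 level of replicate 4 relative to the other HAS2_Tg libraries was 0.16 in the shortest quartile of genes and -0.17 in the longest. Replicate 6, set against libraries that include replicate 4, had -0.11 and 0.12, while Has2_KO libraries stayed between -0.02 and 0.02. The median log2 fold change between groups was 0.10 in the shortest quartile and -0.10 in the longest.

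Most of the tested contractile and SRF genes were higher in HAS2_Tg than in Has2_KO. Of 38 tested with edgeR's quasi-likelihood test (Benjamini-Hochberg adjusted p under 0.05 over all genes), 31 rose in HAS2_Tg, 1 fell and 6 did not pass. Over all 13014 genes tested, 40.7% were called, 20.2% higher and 20.5% lower. The median log2 fold change (HAS2_Tg minus Has2_KO) was 0.82 for the 38 and -0.01 for all genes tested. Of the 31 that rose, 30 had CPM values that did not overlap between groups, where 52.2% of all genes tested did not overlap, 25.2% higher and 26.9% lower. Levels at least 4-fold higher in HAS2_Tg were found in 7 genes, Myh11, Actg2, Tpm2, Lmod1, Myl9, Acta2 and Tagln, against 0.607% of all genes tested. A further 8 genes were higher by between 2-fold and 4-fold. In all, 15 of the 38 were called higher by at least 2-fold and 0 lower. Over all genes tested, 3.31% were called higher and 7.91% lower by at least 2-fold. With library totals in place of TMM the median of all genes moved to -0.18, calls over all genes became 1477 higher (11.3%) and 4827 lower (37.1%), 48.4% in all, instead of 2625 and 2673, and the counts for the contractile and SRF genes became 28 higher and 4 lower. Together the 41 genes took 5.69%, 5.35% and 5.62% of all counts in HAS2_Tg replicates 4, 5 and 6 and 3.18%, 3.19% and 3.23% in Has2_KO replicates 7, 8 and 9.

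**Figure D1:**
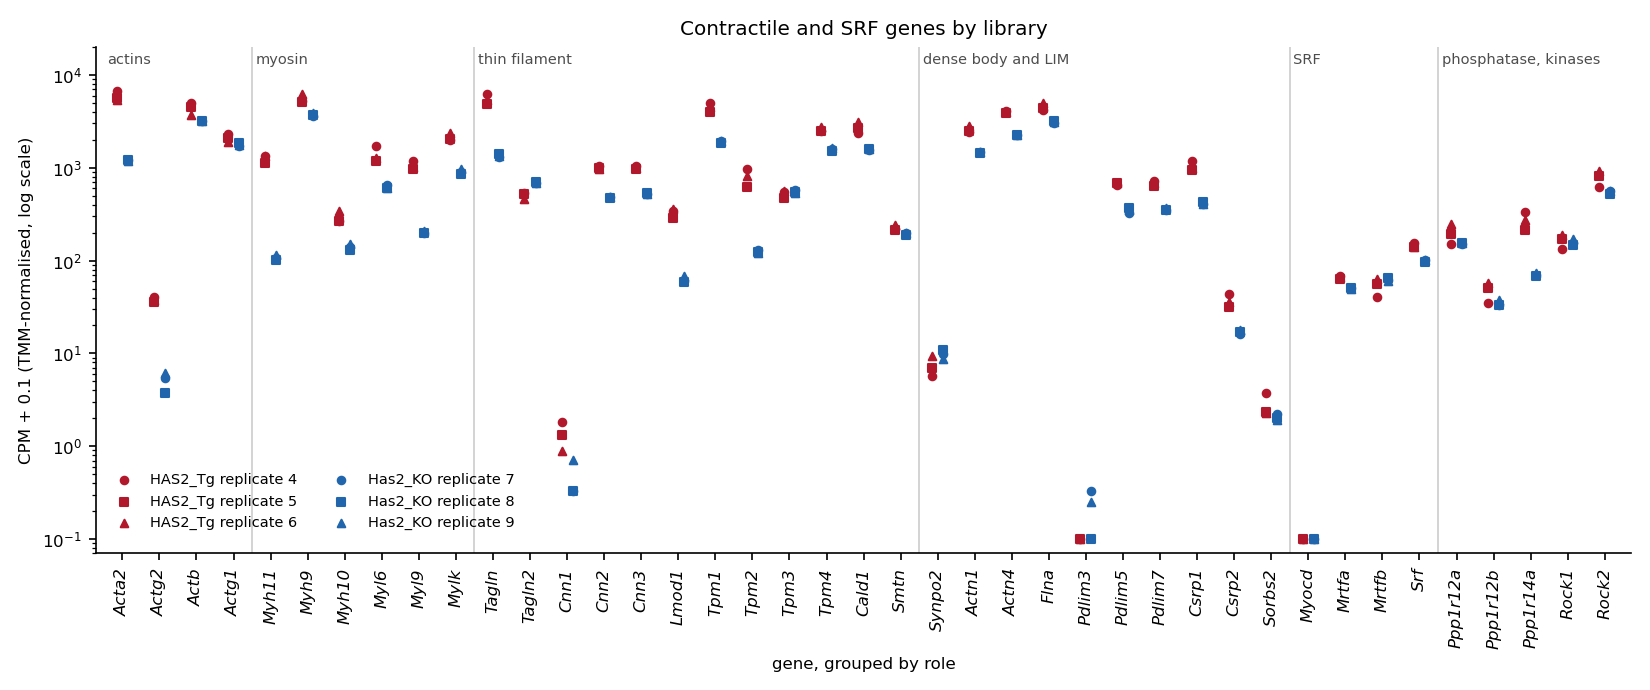
TMM-normalised CPM plus 0.1 on a log axis for the 41 genes, grouped by role, with 1 point per library (red, HAS2_Tg replicates 4 to 6; blue, Has2_KO replicates 7 to 9). Myh11, Actg2, Tpm2, Lmod1, Myl9, Acta2 and Tagln show the widest gaps between groups among tested genes, and Myocd and Pdlim3 sit at or near 0.

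SRF binding elements are shown here because SRF is a known regulator of many of these genes. The RefSeq promoter table (GRCm38.p6, the assembly of mm10) held windows for 34 of the 41 genes, and the 250 bases before each start were searched on both strands. Actg2, Actb, Myh11, Tagln, Csrp2, Myocd and Rock1 had no window and were not searched. An exact CArG box was present for 5 of the 34 genes (14.7%), Srf, Myl9, Myl6, Actg1 and Cnn2, and for 1.62% of the 27025 genes in the table. A CArG-like element, in which 1 base of the A and T run is G or C, was found for 5 of 34 (14.7%), Acta2, Myl9, Mrtfa, Pdlim3 and Tpm3, against 8.33% of all genes. The genes were named as SRF targets and contractile genes to begin with, so this share describes the choice of genes. The motif CATTCC, read by TEAD factors, was found for 13 of 34 (38.2%) against 14.4%, and TATAAA for 5 of 34 (14.7%) against 14.3%. The Myl6 window that holds the box lies inside the gene and within an annotated exon, and the window before the outer start of Myl6 held none of these motifs. Most of the Acta2 window overlaps exons of another transcript. A match is a string of letters in this window and says nothing of occupancy in these cells. The exact and CArG-like elements of the genes other than Srf follow with their flanking bases, 5′ to 3′ on the gene's strand, with the element in capitals.
Acta2, minus strand, chr19:34255438-34255467: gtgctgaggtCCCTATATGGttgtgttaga
Acta2, minus strand, chr19:34255388-34255417: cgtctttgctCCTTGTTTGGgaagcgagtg
Myl9, plus strand, chr2:156775293-156775322: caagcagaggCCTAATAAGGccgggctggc
Myl9, plus strand, chr2:156775355-156775384: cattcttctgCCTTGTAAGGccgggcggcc
Myl6, minus strand, chr10:128493040-128493069: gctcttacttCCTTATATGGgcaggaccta
Actg1, minus strand, chr11:120348566-120348595: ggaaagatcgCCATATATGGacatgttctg
Cnn2, plus strand, chr10:79988534-79988563: cgcttccacgCCTTATAAGGacatttgctc
Mrtfa, minus strand, chr15:81190841-81190870: gcgaacgcccCCTAAATCGGgctagcccta
Pdlim3, plus strand, chr8:45885377-45885406: tctctcacttCCAAAGTTGGagctctcctt
Tpm3, plus strand, chr3:90072575-90072604: gctagaaagaCCATGTTAGGaagaagaggt
Tpm3, plus strand, before another start, chr3:90079454-90079483: aaccccgcccCCTTTACTGGactaaggaaa

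The elements in Acta2 began 84 and 34 bases before the start, those in Myl9 161 and 99, and those in Myl6, Actg1 and Cnn2 50, 90 and 56. Srf itself carried 2 exact boxes, 82 and 62 bases before an annotated start that lies inside the gene span given below. The 237 bases shown precede the first annotated exon base within that window (minus strand, chr17:46556176-46556412).
Srf: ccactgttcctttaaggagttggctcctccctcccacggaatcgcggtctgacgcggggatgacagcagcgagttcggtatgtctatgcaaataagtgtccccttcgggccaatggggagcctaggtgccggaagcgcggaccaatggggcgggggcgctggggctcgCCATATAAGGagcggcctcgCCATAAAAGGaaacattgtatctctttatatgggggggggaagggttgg
The genes that hold an exact box differed widely in their change, from Actg1 at a log2 fold change of 0.25 to Myl9 at 2.39, as the following values show.

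All 4 actins rose in HAS2_Tg, the smooth muscle forms far more than the cytoplasmic ones. Acta2 (gene identifier 11475, chr19:34240336-34255585), alpha smooth muscle actin, stood at 6711, 5615 and 5387 CPM in HAS2_Tg replicates 4, 5 and 6 and at 1206, 1201 and 1180.3 CPM in Has2_KO replicates 7, 8 and 9. The groups were far apart and replicate 4 was the highest library. The mean was 5904 ± 708 against 1196 ± 13.7 CPM (SD, n = 3), a log2 fold change of 2.30 (SE 0.10, edgeR adjusted p = 6.59e-11), or 4.94-fold. Actg2 (11468, chr6:83512909-83536251), the gamma actin of visceral muscle, was a minor actin that changed more. It had 40.6, 35.4 and 37.6 CPM against 5.40, 3.64 and 6.03 CPM (log2 fold change 2.91 with SE 0.14, edgeR adjusted p = 3.69e-10).

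Actb, cytoplasmic beta actin, was 5036, 4566 and 3704 CPM in HAS2_Tg and 3165, 3205 and 3180.4 CPM in Has2_KO (log2 fold change 0.48 with SE 0.10, edgeR adjusted p = 0.00154). The lowest HAS2_Tg library was still above the highest Has2_KO library, and the call ended in the FPKM fit without a filter (0.29, limma adjusted p = 0.075). Actg1, cytoplasmic gamma actin, was 2311, 2112 and 1896 against 1710.3, 1849 and 1757 CPM, with a log2 fold change of 0.25 (SE 0.09, edgeR adjusted p = 0.0326). That call ended with total counts (0.07, adjusted p = 0.484), in the FPKM fits, and without HAS2_Tg replicate 5 or any 1 of the Has2_KO libraries (adjusted p from 0.0557 to 0.131). RSEM divides a read between genes it matches equally well, and 13 of the 40 listed genes, Acta2, Actb and Actg1 among them, had a fractional count in at least 1 library, so values of near-identical paralogs and their pseudogenes are less certain.

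Every myosin gene of the group rose, with Myh11 in front. Myh11 (17880, chr16:14194527-14292188), the myosin heavy chain of smooth muscle, stood at 1354, 1125 and 1333 CPM in HAS2_Tg and at 107, 102 and 115 CPM in Has2_KO (log2 fold change 3.55 with SE 0.10, edgeR adjusted p = 5.81e-13). It was the largest change among the 38 tested genes. The non-muscle heavy chains changed less. Myh9, non-muscle myosin IIA, was 5229.9, 5054 and 6281 against 3649, 3661 and 3914 CPM (0.56, SE 0.09), and Myh10, non-muscle myosin IIB, was 267, 268 and 346 against 138, 129.8 and 152 CPM (1.07, SE 0.10). Neither gene overlapped between groups.

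Of the light chains, Myl9 (98932, chr2:156775408-156781657), the regulatory light chain that is phosphorylated to start contraction, was 1184, 967 and 1015 CPM in HAS2_Tg and 201, 196 and 206 CPM in Has2_KO (log2 fold change 2.39 with SE 0.09, edgeR adjusted p = 1.93e-11). Myl6, the essential light chain shared by smooth and non-muscle myosin, was 1702, 1185 and 1268 against 650.4, 602 and 604 CPM (1.16, SE 0.12). Mylk, the kinase that acts on Myl9, was 1986, 2023 and 2382 against 911, 867 and 982 CPM (1.21, SE 0.09, edgeR adjusted p = 4.69e-08). Transcripts of kinase and substrate were thus both higher in HAS2_Tg than in Has2_KO, Myl9 by 5.25-fold and Mylk by 2.32-fold.

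Among 12 proteins of the thin filament, 9 rose, 1 fell, Tpm3 did not pass and Cnn1 was too low to test. Tagln (21345, chr9:45929628-45936058), transgelin or SM22, an actin-bundling protein, was 6192, 4905 and 5399.6 CPM in HAS2_Tg and 1305, 1390.3 and 1346 CPM in Has2_KO (log2 fold change 2.03 with SE 0.09, edgeR adjusted p = 2.58e-10). Its paralog Tagln2, which is found outside muscle, was 533, 524 and 456 against 679, 699 and 694 CPM. It fell by 0.45 on the log2 scale (SE 0.08, edgeR adjusted p = 0.000278), the 1 gene of the 41 called lower in HAS2_Tg.

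Lmod1 (93689, chr1:135324813-135368065), leiomodin, which nucleates actin filaments in smooth muscle, was 343, 287 and 358 CPM against 59.6, 59.4 and 67.4 CPM (log2 fold change 2.41, SE 0.10). The tropomyosins, which lie along the filament, ranged in log2 fold change from -0.07 (Tpm3) to 2.69 (Tpm2). Tpm2, beta tropomyosin, was 976, 618 and 822 against 130.4, 125 and 121 CPM (2.69, SE 0.14), with replicate 5 the lowest of the HAS2_Tg libraries. Tpm1 was 4979, 3986 and 4566 against 1929, 1842 and 1929 CPM (1.25, SE 0.09), and Tpm4 2517, 2464 and 2725 against 1599, 1507 and 1638 CPM (0.70, SE 0.08). Tpm3 was 552, 470.0 and 562 against 572, 554 and 541 CPM, with groups that overlapped (-0.07, SE 0.08, edgeR adjusted p = 0.507). With total counts Tpm3 was called lower (-0.25, adjusted p = 0.0158).

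Calponins damp the myosin ATPase in smooth muscle. Cnn1, the calponin of differentiated smooth muscle, was barely present, at 19, 14 and 9 counts in HAS2_Tg and 3, 3 and 8 counts in Has2_KO, and it did not pass the low-count filter. Cnn2 was 1039, 989 and 978 against 486, 476 and 487 CPM (log2 fold change 1.05, SE 0.07), and Cnn3 1051, 961 and 1002 against 522, 541 and 521 CPM (0.93, SE 0.07). The calponins in these cells were therefore the broadly expressed ones. Cald1, caldesmon, another brake on actomyosin, was 2377, 2659 and 3093 against 1560.0, 1602 and 1579.5 CPM (0.78, SE 0.09). Smtn, smoothelin, a marker of contractile smooth muscle, was 220.3, 216 and 242 against 199, 189 and 198 CPM (0.21, SE 0.07, edgeR adjusted p = 0.034). The Smtn call ended with total counts (0.04, adjusted p = 0.701), in the FPKM fits, and without HAS2_Tg replicate 6 or any 1 of the Has2_KO libraries (adjusted p from 0.0907 to 0.142).

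Of 10 proteins that anchor and crosslink actin, 7 rose, Synpo2 and Sorbs2 did not pass, and Pdlim3 was not tested. Csrp1, a LIM protein abundant in smooth muscle, was 1184, 946 and 999 CPM in HAS2_Tg and 405, 433 and 404 CPM in Has2_KO (log2 fold change 1.33, SE 0.09), and its paralog Csrp2 36.8 ± 6.30 against 17.0 ± 0.87 CPM (SD, n = 3; 1.12, SE 0.12). The alpha actinins Actn1 and Actn4 had log2 fold changes of 0.81 (SE 0.08) and 0.82 (SE 0.08), with Actn4 at 4057, 3878 and 4019 against 2236, 2263 and 2262 CPM. Pdlim5 and Pdlim7, PDZ and LIM proteins that bind alpha actinin, both had 0.93 (SE 0.08 each). Flna, filamin A, was 4168, 4372 and 4989 against 3064, 3212 and 3133 CPM (0.52, SE 0.09).

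Synpo2, Sorbs2 and Pdlim3, of the same group, were scarce. Synpo2, myopodin of smooth and striated muscle, was 5.65, 6.89 and 9.35 CPM in HAS2_Tg and 9.81, 10.7 and 8.70 CPM in Has2_KO, with groups that overlapped (log2 fold change -0.41 with SE 0.17, edgeR adjusted p = 0.0665). It was called lower without HAS2_Tg replicate 6 (-0.63, adjusted p = 0.0055) and with total counts (-0.59, adjusted p = 0.0105). Sorbs2 was 3.68, 2.27 and 2.18 against 2.13, 1.90 and 1.83 CPM (0.47, SE 0.25, edgeR adjusted p = 0.16). Pdlim3 had 0 counts in each HAS2_Tg library and 3, 0 and 2 counts in Has2_KO.

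SRF and MRTF-A rose modestly, and myocardin was not detected. Srf (20807, chr17:46546838-46558267) was 153, 141 and 141 CPM in HAS2_Tg and 101, 95.6 and 102 CPM in Has2_KO (log2 fold change 0.55 with SE 0.07, edgeR adjusted p = 2.86e-05). Mrtfa was 68.7, 64.0 and 66.6 against 50.1, 51.1 and 48.8 CPM (0.41, SE 0.08, edgeR adjusted p = 0.000481). Both genes were higher in all HAS2_Tg libraries than in any Has2_KO library. Mrtfb was 40.4, 56.1 and 63.4 against 61.3, 65.4 and 60.4 CPM, with overlapping groups and the lowest value in HAS2_Tg replicate 4 (-0.23, SE 0.13, edgeR adjusted p = 0.191). It was called lower without HAS2_Tg replicate 6 (-0.37, adjusted p = 0.0161) and with total counts (-0.40, adjusted p = 0.0311). Myocd was listed in no library, which at 3 counts allows up to 0.228 to 0.269 CPM, a limit for counting error only.

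Of the regulators of myosin phosphorylation, the inhibitor changed most. Ppp1r14a (68458, chr7:29289320-29293390), CPI-17, which blocks myosin phosphatase, was 334, 212 and 276 CPM in HAS2_Tg and 69.8, 68.5 and 73.1 CPM in Has2_KO (log2 fold change 1.96 with SE 0.14, edgeR adjusted p = 5.38e-07). Rock2 was 626, 809 and 916 against 563, 524 and 562 CPM (0.51, SE 0.11, edgeR adjusted p = 0.00226), a call that ended in the FPKM fits (0.32, limma adjusted p from 0.0589 to 0.108). Rock1, its paralog, was 133, 169 and 188 against 155, 147 and 172 CPM, with overlapping groups (0.05, SE 0.11, edgeR adjusted p = 0.746).

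The targeting subunits of myosin phosphatase were less clear. Ppp1r12b was 35.0, 50.3 and 57.0 CPM against 32.8, 33.1 and 37.6 CPM (log2 fold change 0.46 with SE 0.15, edgeR adjusted p = 0.0298). Replicate 4 overlapped the Has2_KO group, and the call ended with total counts (0.29, adjusted p = 0.154), in the FPKM fits, with no low-count filter, and without HAS2_Tg replicate 5 or 6 or Has2_KO replicate 7 or 8 (adjusted p from 0.0686 to 0.0991). Ppp1r12a was 151, 195 and 247 against 153, 155 and 154 CPM (0.36, SE 0.14, edgeR adjusted p = 0.0685). It was called higher without HAS2_Tg replicate 4 (0.52, adjusted p = 1.50e-05) and by DESeq2 with all libraries (0.36, adjusted p = 0.0191).

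**Figure D2:**
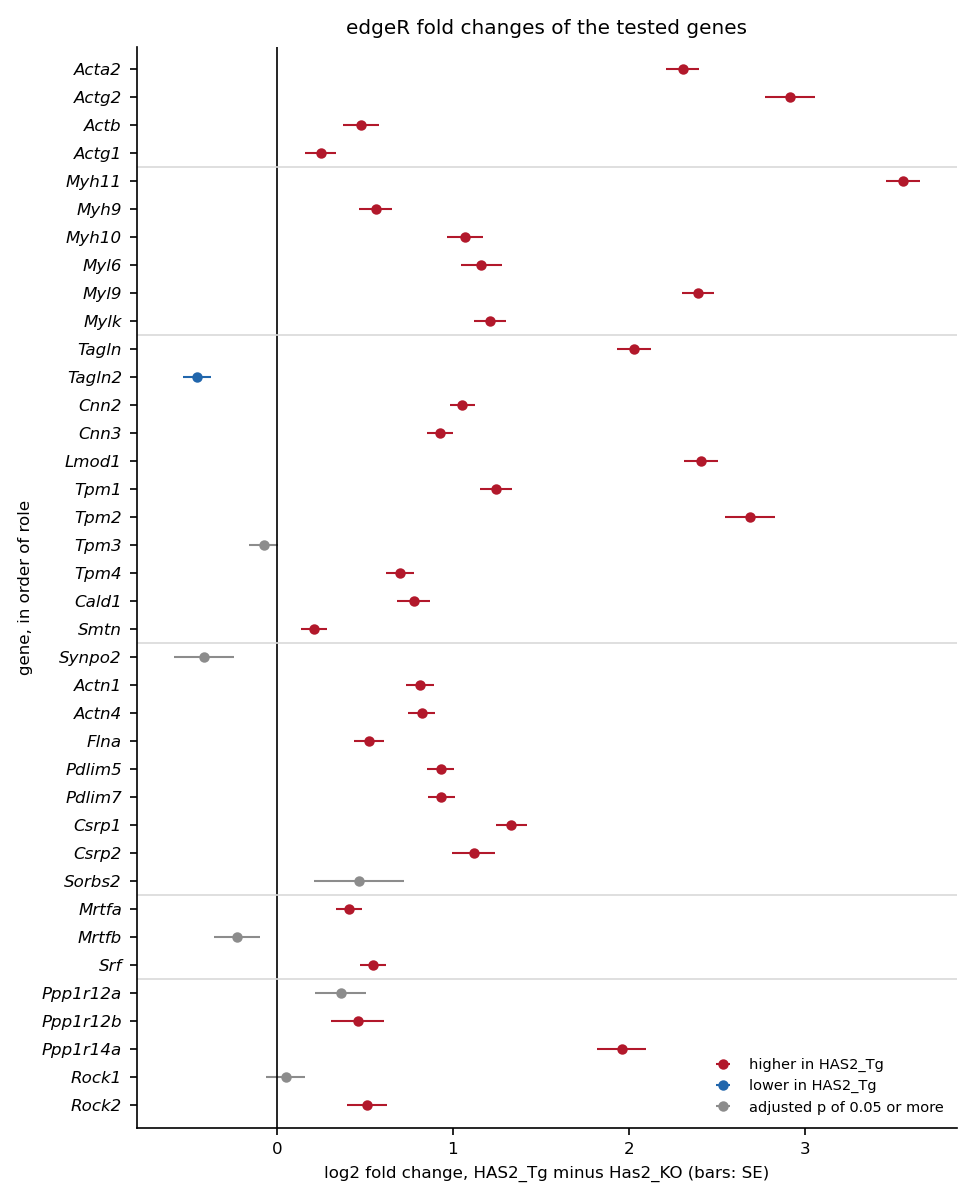
Log2 fold change (HAS2_Tg minus Has2_KO) with its standard error for the 38 tested genes in order of role, red for higher, blue for lower and grey for an adjusted p of 0.05 or more (edgeR). Myh11 lies farthest right at 3.55, Tagln2 is the 1 gene called lower, and 6 genes do not pass.

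Paralogs that share a function were compared within each library, where scaling cancels. Most pairs set a gene typical of smooth muscle against a broadly expressed one, but both genes of the Csrp1 and Csrp2 pair are found in smooth muscle, and Ppp1r12a is itself a smooth muscle subunit. In 8 of 11 pairs the log2 ratio of counts was higher in every HAS2_Tg library than in any Has2_KO library. The exact permutation p was 0.1 for each (two-sided, n = 3), the smallest that 3 against 3 libraries allow, and 0.1375 after Benjamini-Hochberg adjustment over the 11 pairs. The share of separated ratios among other gene pairs was not computed, and 52.2% of all single genes tested had CPM values that did not overlap between groups. Myh11 and Cnn1 recur among the pairs, so the pairs are not independent. Myh11 against Myh9 moved most, from a mean log2 ratio of -5.11 ± 0.04 in Has2_KO to -2.12 ± 0.15 in HAS2_Tg (SD, n = 3), a 7.97-fold shift. Actg2 against Actg1 shifted 6.45-fold, Myh11 against Myh10 5.61-fold, Tagln against Tagln2 5.58-fold, Tpm2 against Tpm4 3.89-fold, Acta2 against Actb 3.56-fold and Tpm1 against Tpm3 2.49-fold. Csrp1 against Csrp2 shifted by 1.17-fold only. Cnn1 against Cnn2 (exact permutation p = 0.3) and Cnn1 against Cnn3 (p = 0.2), both resting on few Cnn1 counts, overlapped between groups, as did Ppp1r12b against Ppp1r12a (p = 0.3).

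**Figure D3:**
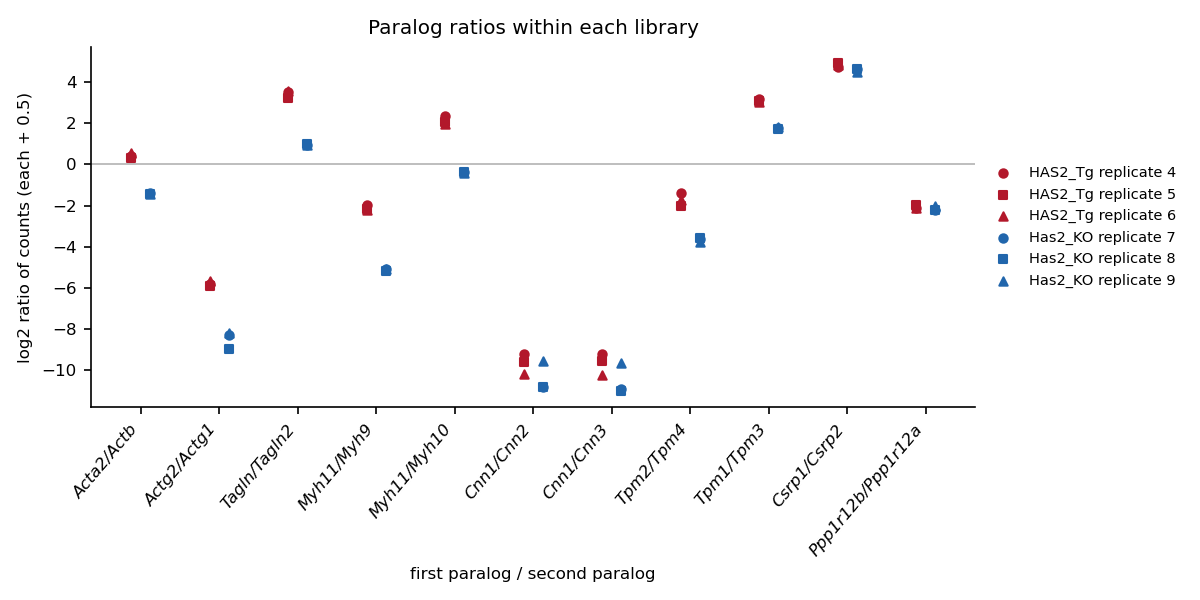
Log2 ratio of counts, each plus 0.5, for 11 pairs of paralogs, with 1 point per library (red, HAS2_Tg; blue, Has2_KO). The groups are separated in 8 pairs, most widely for Myh11 against Myh9, and overlap for both Cnn1 pairs and for Ppp1r12b against Ppp1r12a.

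Compared per length, the make-up of whole families differed between groups. The shares are of summed FPKM (fragments scaled to transcript length and depth, the authors' values). Acta2 made up 39.8% ± 1.61 of all actin FPKM in HAS2_Tg and 15.1% ± 0.28 in Has2_KO (SD, n = 3), while Actb made up 40.7% ± 1.80 and 54.9% ± 0.48. The striated actin Acta1 made up 0.0014% and 0.0029%. Myh11 held 19.7% ± 1.69 of the heavy chain FPKM in HAS2_Tg and 3.03% ± 0.08 in Has2_KO, and Myh9 was the main heavy chain in both, at 76.4% ± 1.48 and 93.7% ± 0.23. Tagln held 90.4% ± 1.16 and 62.9% ± 0.42 of the transgelins. In the tropomyosins Tpm2 held 8.22% ± 1.16 against 2.69% ± 0.13 and Tpm1 60.0% ± 0.97 against 52.1% ± 0.08. The calponins were divided between Cnn2 (52.6% ± 0.68 and 50.5% ± 0.84) and Cnn3 in both groups. The summed FPKM of each of these 5 families was also higher in HAS2_Tg, for example 5421 ± 645 against 3268 ± 48.2 for the actins and 3625 ± 337 against 1444 ± 34.6 for the transgelins.

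**Figure D4:**
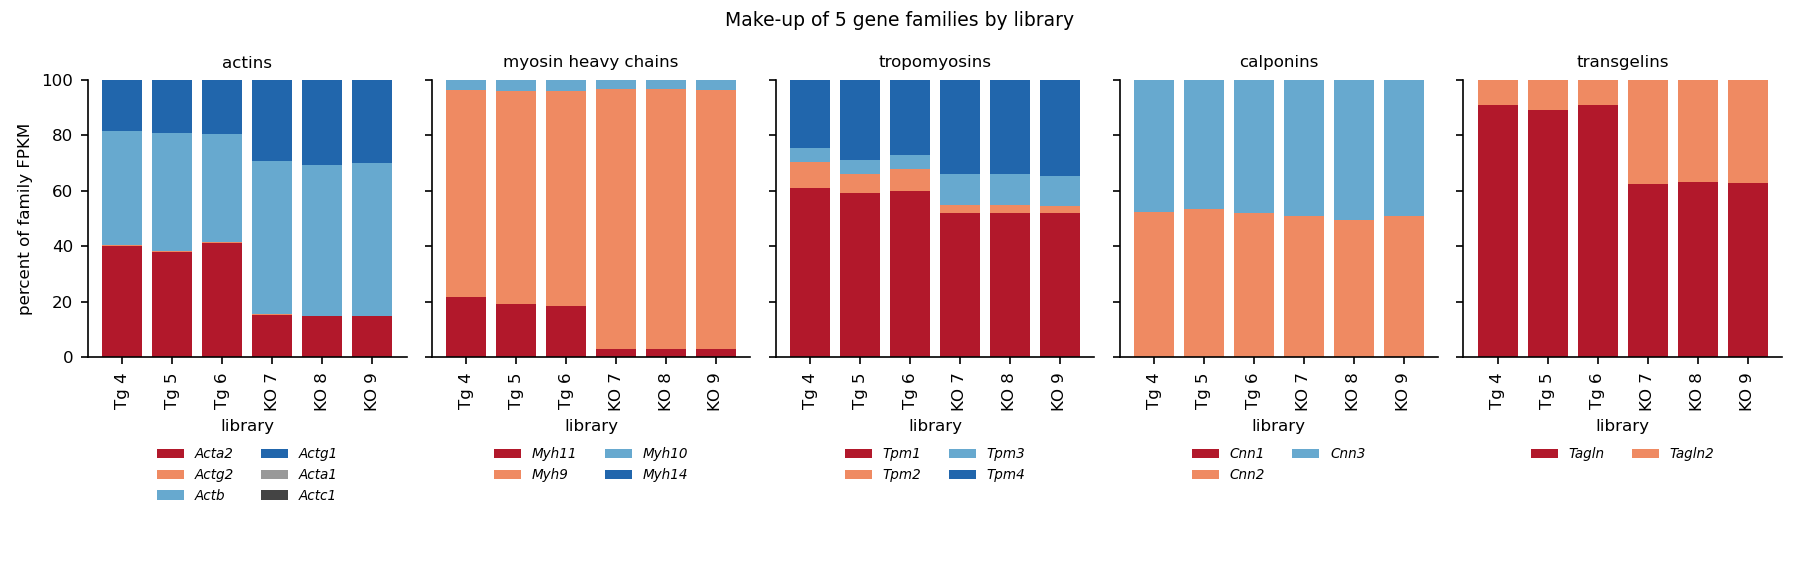
Percent of the summed FPKM of 5 families (actins, myosin heavy chains, tropomyosins, calponins, transgelins) taken by each gene, with 1 bar per library (Tg 4 to 6, HAS2_Tg; KO 7 to 9, Has2_KO). Acta2 and Myh11, in red at the foot of their bars, take a larger share in all HAS2_Tg libraries, and the calponin bars are nearly alike in the 6 libraries.

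The order of FPKM levels within each group shows which contractile genes dominate these cells. In HAS2_Tg, Tagln was highest (3278 ± 333 FPKM) and ranked 4 among all genes, followed by Tpm1 (2614 ± 242), Actb (2214 ± 332), Acta2 (2152 ± 234) and Myl6 (2064 ± 383). Tpm1, Actb, Acta2 and Myl6 did not differ beyond their spread. In Has2_KO the order was Actb (1794 ± 10.7 FPKM), Tpm1 (1231 ± 40.2), Myl6 (1043 ± 48.1), Actg1 (977 ± 38.2) and Tagln (908 ± 27.8), where Myl6 and Actg1 did not differ beyond their spread, and Acta2 had 492 ± 6.75. At the other end, Sorbs2 had 0.417 ± 0.13 and Cnn1 0.587 ± 0.22 FPKM in HAS2_Tg. The regulators lay between, with Srf at 33.1 ± 1.23, Mrtfa at 14.4 ± 0.42 and Mrtfb at 5.99 ± 1.37 FPKM in HAS2_Tg.

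RSEM's mean transcript length per gene, weighted by isoform abundance, gave a view of isoform use for the 10 tested genes with several transcripts. Pdlim7 had mean lengths of 2519, 2511 and 2532 bases in HAS2_Tg and 2441, 2426 and 2429 bases in Has2_KO, with no overlap. Tpm3 also did not overlap, but by about 1 base (means 2264 and 2265 bases). Tpm1, with 10 listed transcripts, overlapped (1581 to 1665 against 1641 to 1659 bases), as did the other 7 genes. Over all tested genes with several transcripts, 14.3% had lengths that did not overlap between groups.

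Other SRF and MRTF target genes, from a list that shares no gene with the 41, rose in 23 of 29 tested cases (of 31 listed) and fell in 1, with a median log2 fold change of 0.82. That is 79.3% higher, where 20.2% of all genes tested were higher and 20.5% lower. Desmin (Des), the muscle intermediate filament and also a stellate cell marker, was 833 ± 86.3 against 283 ± 3.67 CPM (log2 fold change 1.56, SE 0.08), junctophilin Jph2, which couples membranes for calcium release, 20.3 ± 1.25 against 3.27 ± 0.65 CPM (2.63, SE 0.15), the collagen receptor subunit Itga1 720 ± 94.9 against 273 ± 4.42 CPM (1.40, SE 0.09) and filamin C (Flnc) 66.7 ± 9.18 against 18.7 ± 2.53 CPM (1.84, SE 0.12; SD, n = 3). Ankrd1, a MRTF and YAP target, moved the other way, at 611, 646 and 693 against 827, 741 and 784 CPM (-0.27, SE 0.08, edgeR adjusted p = 0.0126). The Ankrd1 call ended without Has2_KO replicate 7 (-0.23, adjusted p = 0.0807).

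Actin dynamics genes and SRF partner factors moved both ways, 15 higher (37.5%) and 6 lower of 40 tested (of 42 listed), with a median of 0.02. The shares over all genes tested were 20.2% higher and 20.5% lower. Gelsolin (Gsn), which severs filaments, was 107 ± 17.4 against 40.5 ± 1.42 CPM (log2 fold change 1.40, SE 0.10), and the thymosins Tmsb10 (1.09, SE 0.10) and Tmsb4x (0.99, SE 0.09), which bind actin monomers, rose as did the transcription factor Klf4 (0.73, SE 0.08), known to oppose myocardin. The phosphatases of cofilin, Ssh2 (-0.63, SE 0.09) and Ssh1 (-0.57, SE 0.12), the Arp2/3 subunit Arpc1b (-0.43, SE 0.07) and Elk3 (-0.42, SE 0.08), an ETS factor that competes with MRTF for SRF, fell. With total counts, which lower the values of all genes alike, the split was 8 higher and 16 lower. Under that scaling 11.3% of all genes tested were called higher and 37.1% lower.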

How the data were processed

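The authors deposited 1 file per library with an expected count, an FPKM value and a mean transcript length per gene, per the file headers. Per the submitters' processing notes RSEM and mm10 were used; no aligner is named in the sources used here. Expected counts are the authors' deposited read estimates, and a gene missing from a file was set to 0. Identifiers were named through RefSeq tables of GRCm38.p6 (17857 of 17909). Expected counts were rounded, filtered with filterByExpr, scaled by TMM and compared over the 6 libraries with glmQLFit (robust) and glmQLFTest of edgeR, Benjamini-Hochberg at 0.05. The SE was taken as the absolute log2 fold change over the square root of F. Replicates differed by more than sampling noise (chi-square per degree of freedom 2.31 to 31.6). The genes, gene lists and pairs were chosen with earlier results of these data known. All 41 genes were to be named, up to 4 called genes in each direction by adjusted p from each pathway list, and up to 2 of highest mean CPM from each marker list. Of these marker genes, those of vascular smooth muscle and pericytes and of hepatocytes are given, and Cxcr2 of the neutrophil list. One pathway list is not reported here. Marker genes at 0 were named after their values were seen. On simulated HAS2_Tg against Has2_KO counts (12852 genes), recovery was 24% for changes of 1.25-fold, 84% for 1.5-fold, 94% for 2-fold and 100% for 4-fold. Of 161 genes called there, 10 (6.21%) were unchanged. The simulation changed 50 genes at each fold, up and down alike, with no length trend. In the data 40.7% of genes were called, so these rates need not hold there. Software: edgeR 4.0.16, limma 3.58.1 and DESeq2 1.42.0 under R 4.3.3, with scipy 1.17.1 under Python 3.11.15.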

Additional observations from a re-analysis of the deposited data

How the results depend on the processing

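Across 18 alternatives, 21 of the 38 tested contractile and SRF genes kept their direction and their side of the threshold in each one run, and DESeq2 size factors, TMM without marker genes of other cells, a minimum of 1 CPM in all libraries of a group, and offsets that remove a trend with transcript length (added after seeing the data) changed none of the 38. The fits named below are total counts, limma on log2(FPKM + 1), log2(FPKM + 0.1) and log2(FPKM + 1) without a filter, and a test against a fold of 1.5. In that order, genes called higher over all genes were 1477, 1399, 1376, 1366 and 552, and lower 4827, 4198, 4138, 4596 and 1045. Contractile and SRF genes called lower were 4, 4, 4, 2 and 0, and 2 with no filter, with 20 higher in the fold test. Other SRF targets called lower were 3, 3, 3, 3 and 0, 2 with length offsets and 0 at an adjusted p of 0.01. Actin dynamics genes were 8, 8, 7, 6 and 4 higher and 16, 13, 13, 11 and 0 lower. With total counts 1 striated gene was lower.

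With 1 library left out, contractile and SRF genes called were 29 to 32 higher and 1 to 3 lower (3 without HAS2_Tg replicate 6), other SRF targets 0 to 3 lower (0 without Has2_KO replicate 7, 3 without HAS2_Tg replicate 6), actin dynamics genes 4 to 10 lower (10 without HAS2_Tg replicate 6) and striated genes 0 to 1 lower (1 without HAS2_Tg replicate 4). Values that changed sign were those of genes that passed in neither fit. Tpm3 ranged from -0.1182 (without HAS2_Tg replicate 6) to 0.0077 (without HAS2_Tg replicate 5), and Rock1 was -0.12 with total counts, -0.13, -0.14 and -0.13 in the FPKM fits and from -0.062 (without HAS2_Tg replicate 6) to 0.1765 (without HAS2_Tg replicate 4) with 1 library left out. The 11 paralog ratios kept their direction under each alternative run. On counts not scaled by length the difference in share was 27.9 percentage points for Acta2 and 25.4 for Tagln. The causes were not tested. No paired analysis was possible because the groups share no replicate numbers. At this depth Cnn1, Pdlim3 and Myocd were too low to test.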

Other observations

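Genes of the striated muscle sarcomere were mostly too low to test. Of 33 on the list, 26 were listed in the files, 8 passed the low-count filter, 3 were higher in HAS2_Tg and none lower by edgeR. Among all genes tested 20.2% were higher and 20.5% lower. The chaperone Cryab, which stabilises desmin, was 271 ± 39.1 against 138 ± 7.49 CPM (SD, n = 3; log2 fold change 0.97, SE 0.10), cardiac troponin Tnnt2 17.1 ± 3.97 against 6.19 ± 1.18 CPM (1.46, SE 0.18), and the atrial light chain Myl4 2.96 ± 0.16 against 1.67 ± 0.39 CPM (0.82, SE 0.24). The Myl4 call ended without Has2_KO replicate 8 (0.66, edgeR adjusted p = 0.0635).

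Markers of vascular smooth muscle and pericytes, a cell type that expresses many of the 41 genes, summed to 594 to 676 CPM in HAS2_Tg and 370.2 to 397 CPM in Has2_KO. Of 15, 13 were listed and 6 were tested, of which 3 were higher and 1 lower, and Rergl and Olfr558 had no count in any library. In HAS2_Tg, 9 of the 15 stayed under 1 CPM in every library. The most abundant were Abcc9, a potassium channel subunit (283 ± 37.8 against 266 ± 12.8 CPM, log2 fold change 0.09, SE 0.09), and Mcam (159.6 ± 6.84 against 41.1 ± 0.26 CPM, 1.96, SE 0.08; SD, n = 3). Their part in the differences of the contractile genes was not tested.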
